A study of Mus musculus with 20 samples.

Results

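The genes described here are the protein-coding genes of the respiratory chain and ATP synthase. They were chosen by symbol: every protein-coding gene whose GENCODE mouse symbol begins with mt-, Ndufa, Ndufb, Ndufc, Ndufs, Ndufv, Uqcr, Cox4i, Cox5, Cox6, Cox7, Cox8 or Atp5, and Sdha, Sdhb, Sdhc and Sdhd. The rule found 107 of 35579 genes, of which 13 lie on the mitochondrial genome and 94 on nuclear chromosomes. It also took in 8 complex I assembly factors (the Ndufaf genes), which are not subunits of the finished enzyme, and 1 gene, Atp5o, under 2 identifiers. The RNA came from the left hindlimb of wild-type C57BL/6J mice, sampled as skin or as skeletal muscle. The limb had received 35 Gy of electrons 70 days earlier, as FLASH (the dose given at a very high rate) or as CONV (the same dose at the usual rate), or a sham procedure without dose. Of the 20 libraries, 10 were of each tissue, and each 10 were made up of 3 sham, 4 FLASH and 3 CONV. No group carried a transgene or a further treatment, and age and sex were not among the labels used here. The labels do not say that replicates are separate animals, so p-values reflect only how much these libraries varied, part of which may be technical.

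The respiratory chain of the inner mitochondrial membrane passes electrons from NADH and succinate to oxygen through complexes I to IV, and the proton gradient this builds drives ATP synthase, also called complex V. Core subunits of complexes I, III, IV and V are encoded by the mitochondrial genome and are transcribed inside the organelle as long polycistronic RNAs, while the remaining subunits, and the whole of complex II, come from nuclear genes. Skeletal muscle is rich in mitochondria and builds complex IV with muscle-type isoforms of several small subunits.

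Some libraries stood apart, and the results that rest on them are given with and without them. In 7 records (2 skin, 5 muscle) the deposited file bore the library name of another sham or FLASH record, so comparisons that involve sham or FLASH alone depend on how files are assigned. No CONV file was affected, and the comparison of the 3 CONV libraries with the other 7 of a tissue is the same under either assignment. Among the skin libraries, sham replicate 1 and FLASH replicate 2 held much skeletal muscle RNA: 10 fast-muscle marker genes summed to 27854 and 28577 TPM (a level corrected for gene length and library size) in them, against 92.8 to 3505 in the other 8 skin libraries and 45284 to 65710 in muscle. All 10 markers were above 0 in at least 1 skin library. The labelled tissues otherwise matched their markers, with 6 keratinocyte genes summing to 5845 to 33345 TPM in skin and 3.49 to 11.6 TPM in muscle. Skin libraries held 24396463 to 33250762 estimated counts each, and muscle libraries 10198699 to 12336479. Skin and muscle were processed as batch 1 and batch 2, so tissue and batch cannot be told apart.

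Transcripts of the 13 mitochondrially encoded genes outweighed those of the 94 nuclear genes in all 20 libraries, and did so more strongly in muscle. The summed TPM of the mitochondrially encoded genes, divided by that of the nuclear genes, was 10.4, 12.8 and 10.6 for the sham muscle libraries in order of replicate. FLASH muscle libraries had ratios of 10.8, 10.3, 11.7 and 10.9, and CONV muscle libraries 10.1, 8.21 and 9.53. All 3 CONV muscle libraries lay below all 7 other muscle libraries. The difference was small: 9.28 ± 0.968 (SD, n = 3) in CONV against 11.1 ± 0.888 (SD, n = 7) in the others, and the highest CONV value was close to the lowest of the others.

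For skin, the sham ratios were 11.4, 4.88 and 4.28, the FLASH ratios 5.58, 8.74, 4.33 and 4.72, and the CONV ratios 5.66, 1.25 and 5.16. The 2 highest values belonged to the muscle-rich sham 1 and FLASH 2, and the lowest to CONV 2. The groups overlapped, with 6.86 ± 3.95 (SD, n = 3) in sham, 5.84 ± 2.00 (SD, n = 4) in FLASH and 4.02 ± 2.41 (SD, n = 3) in CONV. Being a quotient within 1 library, this ratio does not depend on how libraries are scaled to each other, and no test was made on it because it sums over a chosen list.

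**Figure D1:**
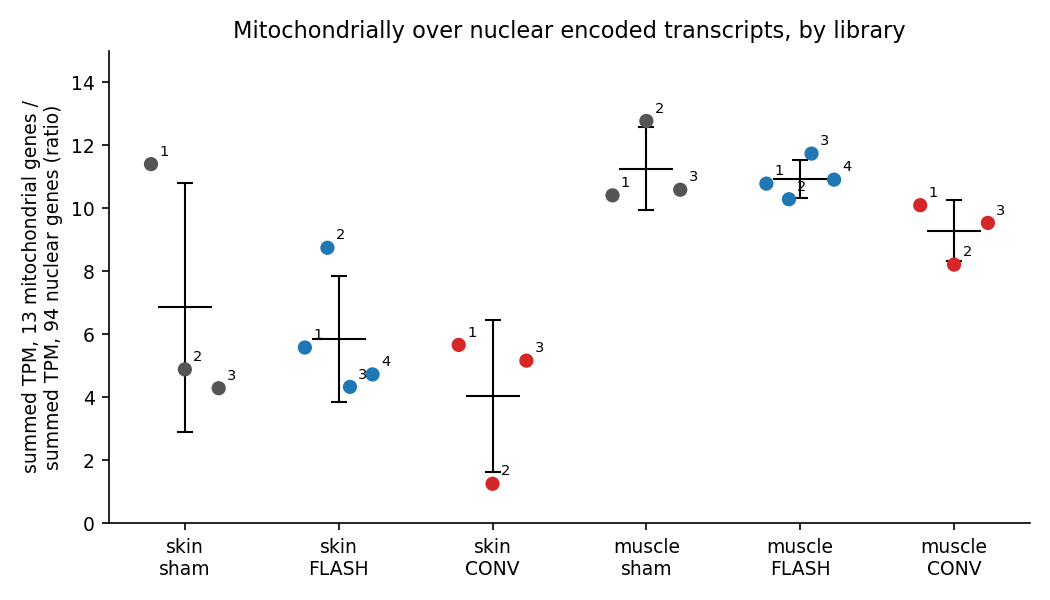
Summed TPM of the 13 mitochondrially encoded genes divided by that of the 94 nuclear genes (y axis, ratio) for each library, by tissue and group (x axis); points are libraries with their replicate number, bars are mean and SD. The 3 CONV muscle libraries (8.21 to 10.1) lie below the other 7 muscle libraries (10.3 to 12.8), and skin sham 1, FLASH 2 and CONV 2 stand apart from the other skin libraries.

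The 2 sums behind the ratio moved unequally. In muscle the mitochondrially encoded genes summed to 130692 to 210174 TPM in sham and FLASH and 143739 to 149044 TPM in CONV, so these levels overlapped. The nuclear genes summed to 12556 to 16457 TPM in sham and FLASH and to 14755, 17508 and 15634 TPM in CONV, with CONV 2 above every other muscle library. Markers of slow fibres, which are rich in mitochondria, summed to 4705 and 2218 TPM in CONV 2 and CONV 3, against 145 in CONV 1 and 55.3 to 1262 in the other 7; all 8 of these markers were above 0 in at least 1 muscle library, and their part in the ratio was not tested. In skin the mitochondrially encoded sum was 14225 TPM in CONV 2 and 39220.5 to 139185 TPM in the other 9 libraries, while the nuclear sum, 11376 TPM in CONV 2, lay within the 8661 to 13751 TPM of the others. In bulk tissue, fewer cells of a type and less RNA per cell cannot be told apart.

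Counting choices touched 1 gene of the 13 strongly. Nuclear chromosome 1 carries copies of parts of the mitochondrial genome, and 7 annotated pseudogenes there share at least 95% of their 31-base words with a mitochondrially encoded gene. For mt-Co2, which encodes a complex IV core subunit, the copy Gm28661 held 37.0% of the joint counts in skin and 67.2% in muscle, so values of mt-Co2 are uncertain. The copy of mt-Co1, Gm29216, held 0.111% in skin and 12.5% in muscle, and the copy of mt-Atp6, Gm10925, held 7.62% and 0.274%. With the copies added to their genes, the ratio was 11.3, 9.66 and 10.7 in CONV muscle and 11.5 to 14.5 in the other 7, so the groups still did not overlap.

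Within the mitochondrial set, the tissues differed in which transcripts dominated. Each gene is given here as its share of the summed TPM of the 13 genes, which again needs no scaling between libraries. The catalytic complex IV subunit gene mt-Co1 took 9.89% to 11.4% in the 10 muscle libraries and 17.0% to 24.2% in the 10 skin libraries. The ATP synthase subunit gene mt-Atp6 took 12.1% to 13.2% in muscle and 0.782% to 8.85% in skin, and mt-Atp8 13.3% to 15.3% against 7.08% to 11.4%. The complex I subunit genes mt-Nd1 and mt-Nd2 took 6.78% to 7.73% and 5.74% to 6.85% in muscle, against 4.43% to 5.61% and 1.37% to 3.38% in skin. For these 5 genes the ranges of the tissues did not overlap. Nor did those of mt-Nd4, at 5.72% to 6.09% in muscle and 2.53% to 5.58% in skin. The shares of mt-Nd5 overlapped, at 3.03% to 3.32% in muscle and 2.58% to 6.52% in skin, as did those of mt-Nd3, at 4.87% to 5.63% and 3.17% to 5.33%.

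Among muscle libraries of all 3 groups the shares had narrow ranges, except for mt-Co2 (1.54% to 6.95%). In skin, CONV replicate 2 stood alone. The gene mt-Nd6 (mitochondrial genome, bases 13552 to 14070), the only 1 of the 13 on the light strand, took 24.9% there and 3.01% to 5.29% in the other 9 skin libraries. Its neighbour mt-Nd5 took 6.52% against 2.58% to 3.20%, whereas mt-Atp6 took 0.782% against 6.93% to 8.85% and mt-Nd4 2.53% against 3.91% to 5.58%. In TPM, mt-Nd6 itself was 3542 in CONV 2, within the 1752 to 6699 of the other skin libraries, while the other 12 genes had their lowest value there. The kit was stranded, but whether the counting used strand is not given in the sources used here, so sense and antisense reads of these abutting genes cannot be told apart. The same library had the highest keratinocyte marker sum, 33345 TPM against 5845 to 15298; all 6 markers were above 0 in skin, and their part in the shares was not tested.

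**Figure D2:**
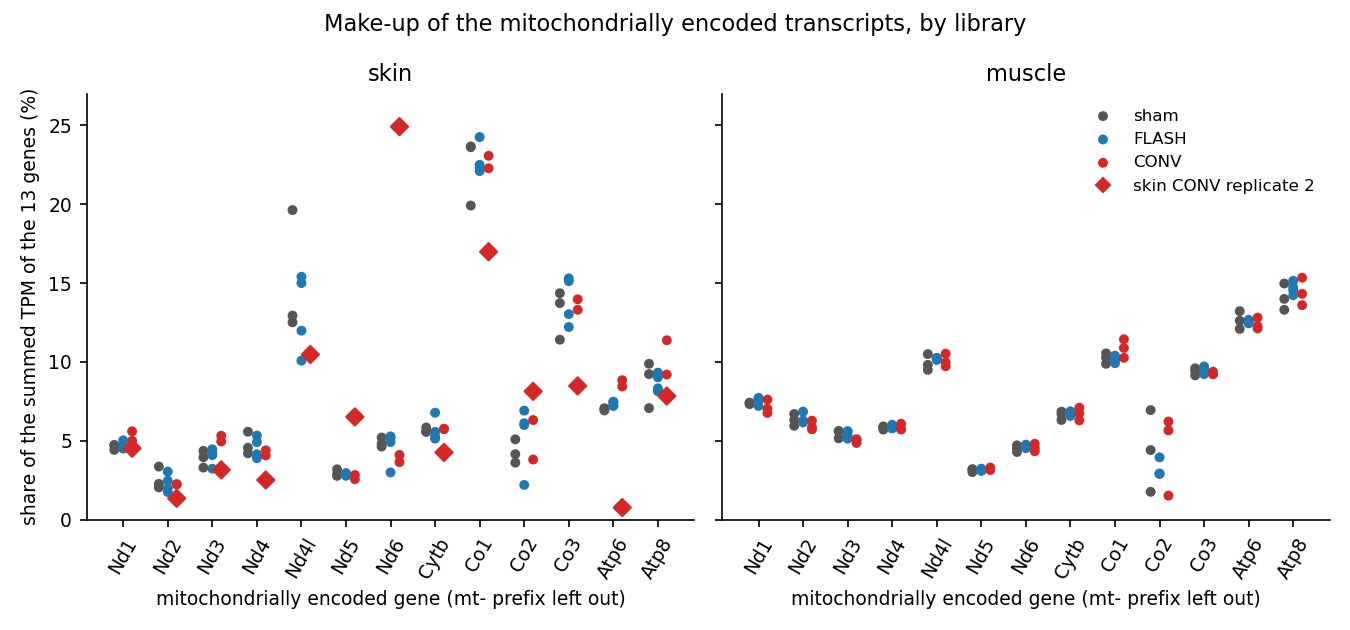
Share of each mitochondrially encoded gene (x axis) in the summed TPM of the 13 genes (y axis, percent) in skin (left) and muscle (right); points are libraries coloured by group, and diamonds mark skin CONV replicate 2. mt-Co1 takes 17.0% to 24.2% in skin and 9.89% to 11.4% in muscle, and mt-Nd6 reaches 24.9% in skin CONV 2.

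Sham muscle was compared with sham skin to show what the members are like without irradiation. Relative to the typical gene, nearly the whole chain was higher in muscle: 100 of 104 members tested were called higher and 1 lower, with 87 of 91 nuclear genes and all 13 mitochondrially encoded genes among the higher. The test was edgeR's quasi-likelihood test with Benjamini-Hochberg adjustment over 19199 genes and a threshold of 0.05, which called 56.9% of all genes (25.2% higher, 31.7% lower). The median log2 fold change was 4.25 for the mitochondrially encoded members, 3.33 for the nuclear members and -0.35 for all genes tested. Complex by complex the nuclear medians were alike, at 3.32 for the 7 core and 3.67 for the 29 accessory subunits of complex I, 3.25 for complex II (4 genes), 3.56 for complex III (8), 3.38 for complex IV (18) and 3.33 for complex V (17). The 8 complex I assembly factors, which leave the enzyme once it is built, had a lower median of 2.23, and all 8 were called higher.

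These fold changes depend on how the tissues are scaled. Muscle counts were concentrated in few genes: the top 10 held 60.01% to 65.1%, and Lars2 alone 35.1% to 41.95%, against 4.25% to 12.9% and at most 0.0430% in skin. The gene Gm20594 showed the same pattern, with 2.995% to 4.67% in muscle and at most 0.00181% in skin. Which RNA gave the counts assigned to these 2 genes was not tested. Scaled by library totals alone, the median of all genes was -2.78, that of the mitochondrially encoded members 1.92 and that of the nuclear members 0.93. With this scaling 75 members were called higher and 10 lower. The share of all genes called is given here for TMM scaling only, so calls with library totals have no background share beside them. Measured from the median of all genes, the nuclear members stood 3.68 higher with TMM scaling and 3.71 higher with library totals, and the mitochondrially encoded members 4.597 and 4.70 higher. Rescaling libraries shifts all genes nearly alike, so the closeness of these values is not separate support. Leaving out the libraries of disagreeing name leaves 1 sham muscle library, assumed to vary like the others. The medians were then 3.43 for the mitochondrially encoded and 2.92 for the nuclear members. In TPM the mean of sham muscle was above that of sham skin for 13 of 13 mitochondrially encoded and 60 of 94 nuclear genes. For Atp5b, the catalytic beta subunit of ATP synthase, TPM was 614 ± 70.5 (SD, n = 10) over all muscle libraries and 646 ± 136 (SD, n = 10) over all skin libraries, whereas its log2 fold change between the sham groups with TMM scaling was 3.22.

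**Figure D3:**
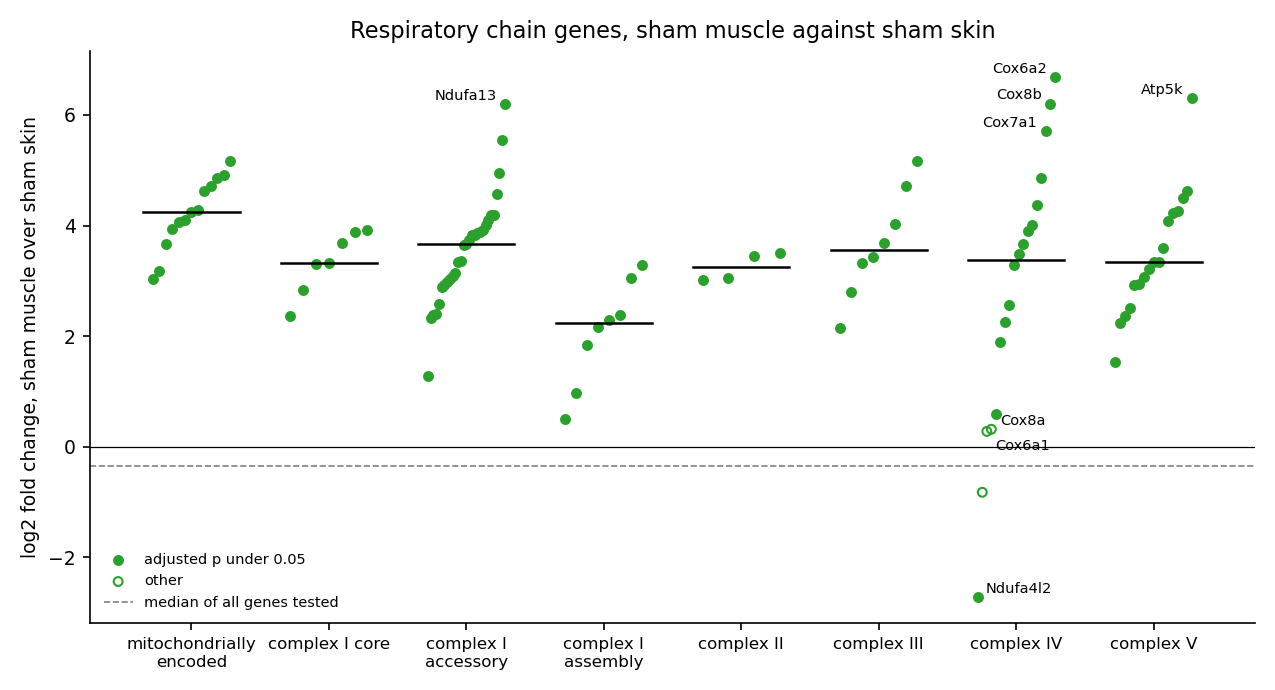
log2 fold change of each member tested (y axis, sham muscle over sham skin, TMM scaling) by role (x axis); filled points had an adjusted p under 0.05, black lines are medians and the dashed line is the median of all genes tested, -0.35. The muscle isoforms Cox6a2, Cox8b and Cox7a1 lie at the top of complex IV and Ndufa4l2 at -2.71 is the only member called lower.

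The largest differences belonged to a few small subunits. The 6 members with the largest increase were Cox6a2, Atp5k, Cox8b, Ndufa13, Cox7a1 and Ndufa5, with log2 fold changes of 6.69, 6.30, 6.21, 6.20, 5.71 and 5.56. Atp5k encodes a small membrane subunit of ATP synthase, and in CPM with TMM scaling it was at 2.27, 1.95 and 1.78 in the sham skin libraries and at 122, 189 and 164 in the sham muscle libraries (adjusted p = 4.9e-10, edgeR). The complex I accessory subunit gene Ndufa13 was at 3.07, 2.41 and 3.46 against 186, 253 and 217 (adjusted p = 1.79e-10). The tissues did not overlap for either gene, and the muscle-rich sham 1 lay close to the other sham skin libraries for both.

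The subunit genes chosen to stand for each complex were called higher by differing amounts. For complex I, Ndufs1 and Ndufv1, which carry the electron path from NADH, had log2 fold changes of 2.37 and 2.83. Sdha and Sdhb, the succinate-oxidising and iron-sulphur subunits of complex II, had 3.50 and 3.45, and Uqcrc1 and Uqcrfs1, a core protein and the Rieske protein of complex III, 2.80 and 3.69. Cox5a of complex IV had 4.00, and Atp5a1, the alpha subunit of ATP synthase, 2.94. All 8 were called higher with TMM scaling, but Ndufs1 was at -0.023 with library totals. The 3 genes for the proton-carrying c subunit ring of ATP synthase, whose mature proteins are identical, differed: Atp5g1 was at 4.26, Atp5g3 at 3.60 and Atp5g2 at 2.24, the last turning to -0.21 with library totals.

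Complex IV held the nuclear members that were not called higher: 14 of its 18 were called higher, 1 lower and 3 neither. Cox6a2, Cox7a1 and Cox8b are the heart and skeletal muscle isoforms of 3 small subunits, and Cox6a1, Cox7a2 and Cox8a their ubiquitous partners. The promoters of 2 of these pairs are shown so that the muscle and ubiquitous forms can be compared. They run 5′ to 3′ on the gene's strand in assembly GRCm38.p6, from 250 bases before the RefSeq start to that start or to the first GENCODE transcript, and capitals mark matches to CANNTG, the E-box bound by myogenic transcription factors.

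Cox7a1 (chr7:30183921-30184143, + strand): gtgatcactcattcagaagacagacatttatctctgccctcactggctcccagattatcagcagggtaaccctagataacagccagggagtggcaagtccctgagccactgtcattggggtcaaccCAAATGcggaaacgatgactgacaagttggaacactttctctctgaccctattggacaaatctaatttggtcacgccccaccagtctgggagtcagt

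Cox7a2 (chr9:79759879-79760103, - strand): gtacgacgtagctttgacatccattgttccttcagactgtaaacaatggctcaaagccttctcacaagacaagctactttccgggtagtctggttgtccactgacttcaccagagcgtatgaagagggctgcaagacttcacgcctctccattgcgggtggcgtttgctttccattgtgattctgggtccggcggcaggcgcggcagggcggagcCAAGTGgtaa

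Cox8b (chr7:140900447-140900696, - strand): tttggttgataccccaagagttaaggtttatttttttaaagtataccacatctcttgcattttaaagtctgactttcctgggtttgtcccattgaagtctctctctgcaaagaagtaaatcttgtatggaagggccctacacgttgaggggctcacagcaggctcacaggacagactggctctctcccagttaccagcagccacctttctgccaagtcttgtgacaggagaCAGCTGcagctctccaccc

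Cox8a (chr19:7217617-7217866, - strand): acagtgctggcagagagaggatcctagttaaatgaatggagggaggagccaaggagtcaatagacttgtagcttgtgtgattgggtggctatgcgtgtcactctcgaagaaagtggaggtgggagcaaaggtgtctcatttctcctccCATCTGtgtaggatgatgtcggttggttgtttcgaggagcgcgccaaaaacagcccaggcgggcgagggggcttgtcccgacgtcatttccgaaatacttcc

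Each of these 4 windows held 1 E-box, in the muscle and the ubiquitous forms alike. None of the 4 held the NRF1 core TGCGCA, the ETS core CCGGAAG or the MEF2 core (CTA, any 4 bases, TAG) on either strand. Of 94 nuclear entries, 75 matched a RefSeq promoter by symbol, which gave 79 promoters of 74 genes. In the 250 bases before the start, the NRF1 core occurred in 19.0% of the members' promoters and in 6.43% of all 32851 promoters, and the ETS core in 17.7% and 6.91%. NRF1 and the ETS factor GABP are known regulators of respiratory genes. The E-box occurred in 63.3% of the members' promoters against 66.2% of all, and the MEF2 core in 1.27% against 3.20%. These shares are descriptions without a test, and a match is not a bound site.

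The muscle isoforms made up almost all of their pair in muscle and little of it in skin. Cox6a2 held 97.0% to 98.4% of the summed TPM of Cox6a1 and Cox6a2 in the 10 muscle libraries, Cox8b 93.8% to 96.7% of its pair, and Cox7a1 77.2% to 88.5% of its pair. In skin, Cox6a2 shares were 74.4%, 0.72% and 11.99% for the sham libraries, 15.4%, 71.1%, 8.23% and 4.68% for FLASH, and 16.9%, 10.3% and 7.43% for CONV. The 2 highest were again those of the muscle-rich sham 1 and FLASH 2. Without these 2 libraries the muscle isoform held 0.72% to 16.9% for Cox6a, 1.31% to 16.4% for Cox8 and 5.17% to 15.3% for Cox7a.

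The fold changes of these isoforms were large but imprecise, because sham skin itself varied. Cox6a2 was at 14.9, 0.0749 and 1.72 CPM in the sham skin libraries and at 448, 662 and 610 CPM in the sham muscle libraries, with a log2 fold change of 6.69 ± 1.52 (SE; adjusted p = 0.00148, edgeR). Cox8b had 6.21 ± 1.28 and Cox7a1 5.71 ± 1.06, and both were called higher. Their partners differed less: Cox7a2 was called higher with 2.26 ± 0.19 (-0.16 with library totals), while Cox6a1 at 0.28 ± 0.41 (adjusted p = 0.581) and Cox8a at 0.32 ± 0.28 (adjusted p = 0.344) were not called. With library totals Cox6a1 and Cox8a were at -2.20 and -2.14 and both were called lower.

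**Figure D4:**
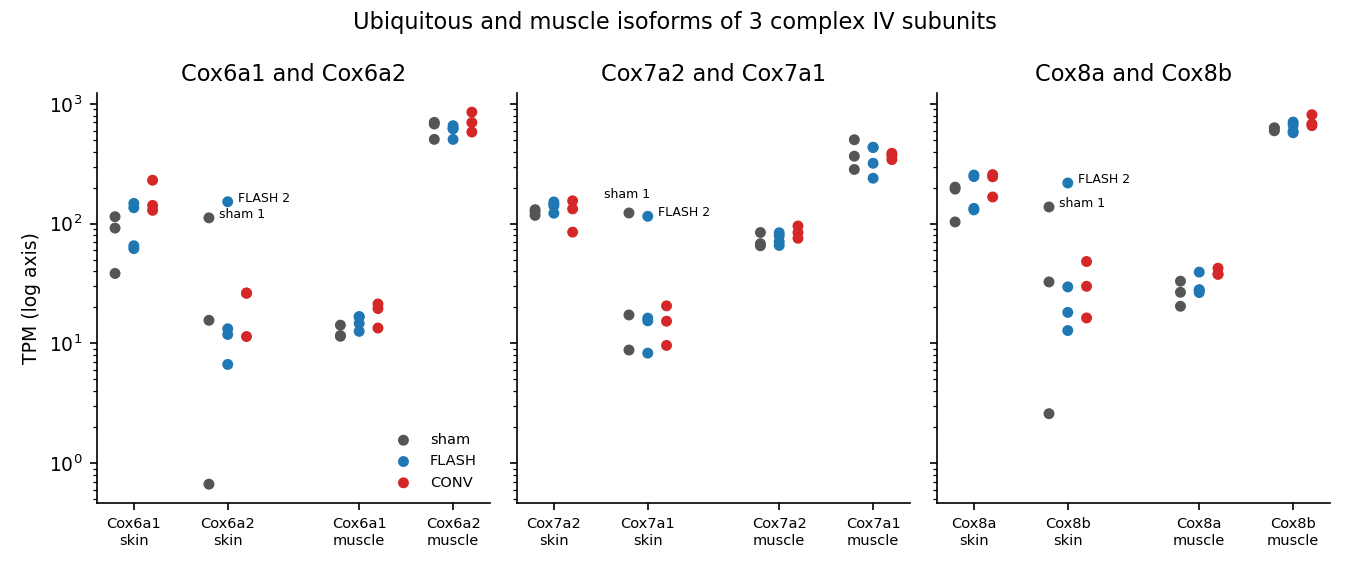
TPM (y axis, log scale) of the ubiquitous (Cox6a1, Cox7a2, Cox8a) and muscle (Cox6a2, Cox7a1, Cox8b) isoform of 3 complex IV subunits in skin and muscle; each point is a library coloured by group. The muscle isoforms are the higher of each pair in muscle, and in skin they reach over 100 TPM only in sham 1 and FLASH 2.

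Further isoform pairs behaved in other ways. Ndufa4 is a subunit of complex IV despite its name, and Ndufa4l2 is its hypoxia-responsive relative. Ndufa4 was called higher in sham muscle (log2 fold change 4.86 ± 0.32), and Ndufa4l2 was the only member called lower (-2.71 ± 0.73, adjusted p = 0.00449, edgeR). In TPM, Ndufa4l2 held 20.9% to 78.3% of its pair across skin libraries and 0.51% to 1.53% in muscle, and this pair was not set by the muscle-rich skin libraries, whose shares were 53.2% and 44.2%. The lung and hypoxia isoform Cox4i2 held 0.463% to 1.82% of its pair with the main form Cox4i1 in skin and 0.178% to 0.832% in muscle. Cox4i2 had 1.89 ± 0.56 and Cox4i1 3.48 ± 0.25, both called higher, though Cox4i2 turned to -0.52 with library totals. Cox6b1 was also called higher, at 2.56 ± 0.27, while its testis-type form Cox6b2 was at -0.82 ± 0.62 (adjusted p = 0.269), and Cox8c and Cox7b2 were too low to be tested in either tissue. Cox4i2 and Cox6b2 passed the count filter within skin but not within muscle.

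Irradiation was examined next. The design asks how the 2 dose rates differ from sham and from each other 70 days later, and no respiratory chain member was called in any of 9 comparisons (4 in each tissue, and the difference between the tissues). This held for edgeR's quasi-likelihood test with Benjamini-Hochberg adjustment and for DESeq2, over 192 fits with all settings tried, in which the smallest adjusted p of a member was 0.0588. The comparisons within a tissue share libraries and are not independent.

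In skin, no member passed the test in CONV, and the medians of both sets depended on single libraries. Against the other 7 libraries, 0 of 104 members tested were called, where 1.65% of all 20026 genes were (1.58% higher and 0.0699% lower), and 9 members had an unadjusted p under 0.05, against 23.4% of all genes. All 13 mitochondrially encoded genes had a log2 fold change below 0, with a median of -0.69. The 91 nuclear members had a median of 0.09, 57 of them above 0, beside a median of 0.00 for all genes tested. The nuclear median turned to -0.08 without CONV 2 and was 0.19 without FLASH 2. Some cell-type markers separated the CONV group. In TPM, 4 neutrophil markers summed to 497 to 2117 in CONV and 13.5 to 291 in the other 7 skin libraries, and 5 fibroblast markers to 5168 to 14787 against 2804 to 4132. All 9 of these markers were above 0 in at least 1 skin library. Sums of macrophage (257 to 702 against 108 to 265), endothelial (106 to 370 against 51.6 to 139) and keratinocyte markers (6051 to 33345 against 5845 to 15245) overlapped. The part of these cell types in the members' values was not tested.

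The mitochondrially encoded difference rested on individual libraries. In CPM with TMM scaling, mt-Co1 was at 22378, 6705 and 6167 for sham, at 7100, 20611, 7608 and 7715 for FLASH and at 9448, 2246 and 8174 for CONV, with a log2 fold change of -0.76 ± 0.58 (SE) for CONV against the others (adjusted p = 0.442). Of the CONV libraries, 2 lay above 5 of the 7 others, CONV 2 lay below all, and the muscle-rich sham 1 and FLASH 2 were the highest. For mt-Nd2 the CONV libraries and the 2 muscle-rich libraries held the same places. It was at 2407, 369 and 378 for sham, 501, 1808, 351 and 430 for FLASH and 610, 115 and 502 for CONV (log2 fold change -1.12 ± 0.81, adjusted p = 0.414). Without the 2 muscle-rich libraries, a comparison added after the data were seen, the median of the 13 genes was -0.00 with 6 of 13 above 0. Without CONV 2 it was -0.36.

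The pairwise comparisons in skin followed the same libraries. CONV against sham called 0 members and 0% of all genes, 6 members had an unadjusted p under 0.05 where 20.1% of all genes did, and the medians were -0.79 for mitochondrially encoded and 0.16 for nuclear members. Without sham 1 the mitochondrially encoded median became 0.21. FLASH against sham also called 0 members and 0% of genes. No member (0 of 104) had an unadjusted p under 0.05, against 0.659% of all genes, and the medians were -0.19 and 0.11, the first becoming 0.83 without sham 1. FLASH against CONV called 0 members and 0% of genes, 0 members had an unadjusted p under 0.05 (12.7% of all genes), and the medians were 0.62 and -0.03. The first was 0.06 without FLASH 2, 0.36 without CONV 2 and 1.05 without CONV 1. Without the 2 muscle-rich libraries the mitochondrially encoded medians of these 3 comparisons were 0.18, 0.21 and 0.09.

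Uqcr11, Uqcrq, Ndufa1 and Ndufaf5 in skin, and Ndufb4 in muscle, are named here after their values were seen. Uqcr11, a small subunit of complex III, was at 10.1, 7.61 and 13.3 CPM for sham, 5.60, 16.8, 16.2 and 14.9 for FLASH and 17.1, 44.9 and 15.9 for CONV, and its log2 fold change for CONV against the others was 1.11 ± 0.39 (adjusted p = 0.142). Cox6a1 was at 9.20, 18.1 and 22.6 CPM for sham, 12.8, 14.2, 30.4 and 28.9 for FLASH and 28.6, 65.4 and 30.96 for CONV, with 1.10 ± 0.38 (adjusted p = 0.137). Both genes overlapped between the groups, with CONV 2 the highest of all 10 libraries, and without CONV 2 the fold changes were 0.45 and 0.61. Uqcrq, another complex III subunit gene, showed the same order, with 0.89 ± 0.33 (adjusted p = 0.151) and 0.47 without CONV 2.

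Among nuclear members, 3 had all 3 CONV skin libraries outside the range of the other 7. Cox4i2 was at 1.49, 1.61 and 1.61 CPM in CONV against 0.511 to 1.34 in the others, and Ndufa1, an accessory complex I gene, at 12.4, 13.03 and 12.2 against 5.44 to 12.1. The assembly factor gene Ndufaf5 was at 3.66, 3.03 and 3.73 against 3.89 to 6.45. Such separation occurred upward in 3.85% of all genes tested and downward in 2.62%, so 2 and 1 of 91 nuclear members are near that background. In TPM, Cox4i2 and Ndufa1 overlapped between the groups, and Ndufaf5 did not. The adjusted p values were 0.195, 0.237 and 0.171. In CONV skin the muscle isoforms Cox6a2, Cox7a1 and Cox8b were within the range of the other libraries, and their fold changes reversed sign without the 2 muscle-rich libraries.

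**Figure D5:**
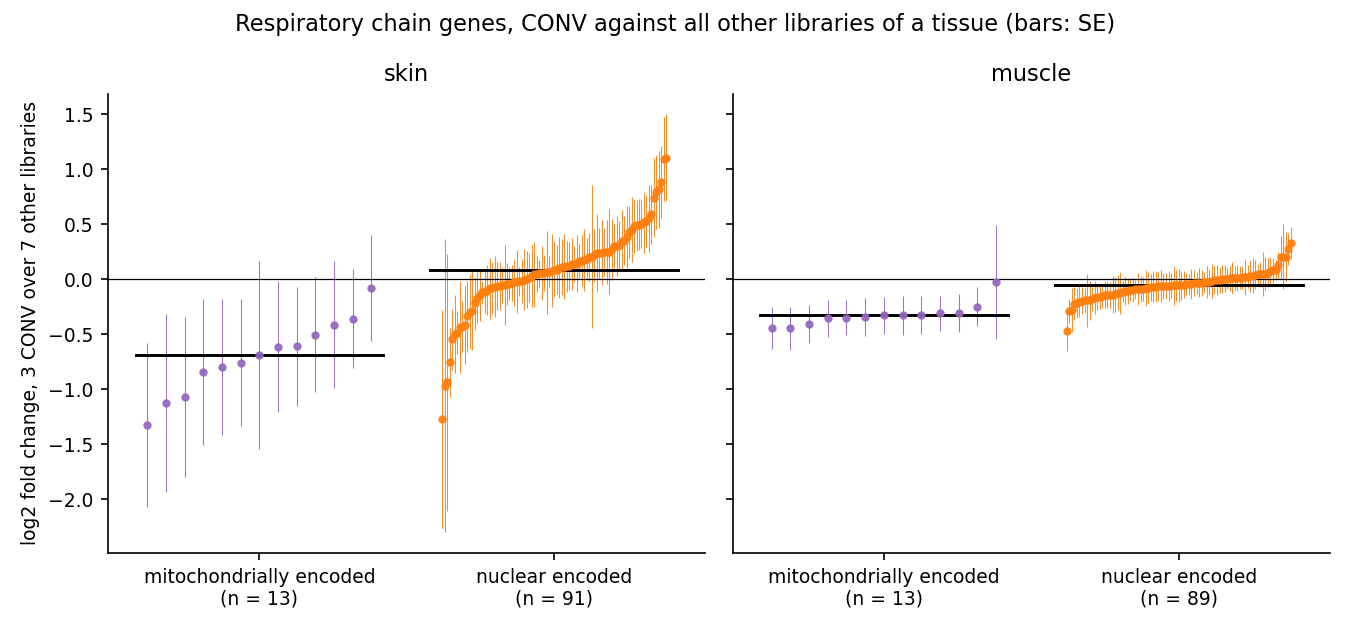
log2 fold change of the 3 CONV libraries over the other 7 (y axis; points are genes, bars are SE, black lines are medians) for mitochondrially encoded and nuclear members (x axis) in skin (left) and muscle (right). All 13 mitochondrially encoded genes lie below 0 in both tissues, with medians of -0.69 and -0.33, and no gene passed an adjusted p of 0.05. The 13 genes are not independent, the skin difference rested on individual libraries, and mt-Co2 in muscle was at -0.024 ± 0.52.

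In muscle the CONV libraries differed less in size but from a tighter background. Against the other 7, 0 of 102 members tested were called (0.0612% of 13080 genes were, 0.0459% higher and 0.0153% lower), and 7 members had an unadjusted p under 0.05, against 11.9% of all genes. All 13 mitochondrially encoded genes were below 0, with a median of -0.33, and the 89 nuclear members had a median of -0.05 with 28 above 0. The median of all genes was 0.01. With library totals in place of TMM the median of all genes was 0.10 and those of the members -0.24 and 0.04, so the nuclear sign turned. Measured from the median of all genes, the 2 sets were at -0.33 and -0.06 with TMM and -0.34 and -0.06 with totals. Rescaling libraries shifts all genes nearly alike, so these distances could hardly change. Without the 5 libraries of disagreeing name, which leaves 2 of the other 7, the medians were -0.07 and 0.13.

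Single genes showed how small the differences were. The complex I gene mt-Nd1 was at 5869, 10298 and 6965 CPM for sham, 7706, 5797, 8863 and 6206 for FLASH and 5759, 5292 and 5698 for CONV. It was the only member of 102 with all 3 CONV libraries below the other 7, by a narrow margin, where 2.47% of all genes were separated in this way and 1.98% upward, and in TPM its groups overlapped. Its log2 fold change was -0.40 ± 0.17 (SE; adjusted p = 0.38, edgeR). For mt-Co1 the CPM values were 13754, 24840 and 17569 for sham, 18153, 13573, 20089 and 15474 for FLASH and 13574, 15031 and 15987 for CONV, so the groups overlapped (-0.25 ± 0.17, adjusted p = 0.599). Among nuclear members the smallest p belonged to Ndufb4, an accessory complex I gene, with -0.29 ± 0.11 (adjusted p = 0.298).

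The pairwise muscle comparisons depended on the assignment of files. CONV against sham called 0 members (0.00765% of genes), 6 had an unadjusted p under 0.05, 5 of them mitochondrially encoded, where 10.0% of all genes did, and the medians were -0.40 for mitochondrially encoded and -0.10 for nuclear members. By library name these were -0.20 and 0.05, and without the disagreeing libraries, which leaves 1 sham library, -0.028 and 0.13. Without sham 2, the library with the highest mitochondrially encoded levels, they were -0.14 and 0.04. FLASH against sham called 0 members and 0% of genes, 0 had an unadjusted p under 0.05 (2.50% of all genes), and its medians of -0.13 and -0.09 became 0.13 and 0.06 without sham 2, and 0.22 and 0.17 by library name. FLASH against CONV called 0 members (0.00765% of genes), 1 had an unadjusted p under 0.05 (8.30% of all genes), and the medians were 0.28 and 0.02, or 0.43 and 0.11 by library name. The library with the lowest mitochondrially encoded sum in muscle, sham 1 (130692 TPM), had the highest fast-fibre marker sum (65710 TPM), and the 1 with the highest sum, sham 2, had 46798 TPM; all 10 markers were above 0, and their part was not tested.

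Whether the CONV difference varied between tissues was tested as an interaction over all 20 libraries. It called 0 of 104 members (0.109% of all genes, 0.0208% higher and 0.0885% lower), with 8 at an unadjusted p under 0.05 against 16.4% of all genes. The smallest adjusted p was 0.203, for Cox4i2, whose log2 difference was -1.71 ± 0.65 (muscle minus skin). Cox4i2 did not pass the count filter within muscle, where it was at 0.501 to 2.47 TPM, so the muscle side of this difference rests on low values. The medians were 0.30 for mitochondrially encoded and -0.16 for nuclear members, and -0.36 and -0.35 without the 2 muscle-rich skin libraries, so the first changed sign. Without skin sham 1 or skin CONV 2 alone the mitochondrially encoded median was -0.0050 or 0.05, and without skin CONV 1 it was 0.80.

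A list of 65 other mitochondrial genes, covering regulators of mitochondrial biogenesis, mitochondrial transcription and assembly factors outside the symbol rule, gave the surroundings of the chain. In sham muscle against sham skin 48 were called higher and 6 lower with TMM scaling, beside 25.2% and 31.7% of all genes, with a median log2 fold change of 1.48. The direction of this list depended on the scaling: with library totals 3 were called higher and 42 lower, with a median of -0.95 beside -2.78 for all genes. The share of all genes called with library totals is not given here, so these calls are not read as a result about the list. The values that follow are with TMM scaling. The largest increases were those of Cox11 (4.13 ± 0.25), Etfb (3.51 ± 0.31), Uqcc2 (3.37 ± 0.17) and Cycs (3.01 ± 0.41), of which Cox11 inserts copper into complex IV, Etfb belongs to the electron transfer flavoprotein and Cycs is cytochrome c. Mterf1a (-1.37 ± 0.42), Nrf1 (-1.13 ± 0.16), Acad9 (-0.98 ± 0.21) and Polg2 (-0.95 ± 0.31) were the largest among the lower. Ppargc1a, a coactivator of mitochondrial biogenesis, was called higher at 2.77 ± 0.60, and Tfam, which packages mitochondrial DNA and takes part in its transcription, at 1.68 ± 0.14. With library totals Ppargc1a was at 0.41 and not called, and Tfam was at -0.76 and called lower. In the 9 irradiation comparisons edgeR with its main settings called 0 of them, with 0 to 9 at an unadjusted p under 0.05 and a smallest adjusted p of 0.051. DESeq2 called 2 of them in skin CONV against sham, in skin CONV against all others and in the interaction, named here after their values were seen: Ppard and Ppara, nuclear receptors that regulate fatty acid oxidation. With edgeR both passed in skin CONV against all others with a replicate block or without FLASH 4, and in the interaction without skin FLASH 4. Ppard alone passed in skin CONV against all others without the count filter or without CONV 1, and in CONV against sham without FLASH 4. In the interaction it also passed with a replicate block or without skin CONV 1. Atpaf1, also named after its values were seen, passed in skin CONV against all others without CONV 1 (adjusted p = 0.0373, edgeR). Shares of all genes called are not given here for DESeq2 or these settings. Ppard was at 93.1, 149 and 128 CPM in the CONV skin libraries and at 33.9 to 90.7 in the other 7, with no overlap (log2 fold change 1.25 ± 0.27, adjusted p = 0.051 with edgeR and 0.00321 with DESeq2). Such upward separation occurred in 3.85% of all genes tested in skin. Ppara was at 6.83, 7.35 and 4.82 CPM against 6.65 to 22.7, with overlap (-1.31 ± 0.37, adjusted p = 0.0913 and 0.00727). In CONV against all others in skin, Ppargc1a was at -1.05 ± 0.60 (adjusted p = 0.314, edgeR), and at -0.32 ± 0.35 without the 2 muscle-rich libraries, in which it stood at 37.996 and 36.8 CPM against 5.21 to 14.9 in the other 8. Tfam was at 0.00 ± 0.13 in skin, and in muscle Ppargc1a was at 0.42 ± 0.23 and Tfam at -0.03 ± 0.12.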

How the data were processed

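The authors deposited kallisto output for 116116 transcripts per library (estimated counts and TPM), from version 0.5.0 on mm10, per the submitters' processing notes; the annotation release and the strand setting are not given in the sources used here. Total RNA libraries were stranded and depleted of ribosomal RNA, per the labels' protocols. Transcripts were matched by identifier without version to GENCODE M21 (98.5% matched; unmatched left out), the deposited estimated counts were summed to 35579 genes and rounded, and the deposited TPM values were summed without change. No mitochondrial rRNA or tRNA was among the members.

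Genes passing filterByExpr were tested with edgeR 4.0.16 (R 4.3.3; quasi-likelihood, robust, TMM, the 3 groups of a tissue fitted together for pairwise comparisons, CONV and the other 7 libraries as 2 groups for CONV against all others, and all 20 libraries for the tissue and interaction comparisons, Benjamini-Hochberg over all genes tested, threshold 0.05). SE is the log2 fold change over the square root of F. CPM levels use TMM factors of the same fit, so those of the tissue comparison are on another scale than those within a tissue. Of the 107 members, 104 passed the filter in skin, 102 in muscle and 104 over all libraries. DESeq2 1.42.0, other scalings, no filter, a replicate block, files assigned by library name, and each library left out were alternatives. The code was tested on simulated counts with 200 changed genes and an assumed spread for each tissue. In skin, CONV against sham recovered 1% of 2-fold and 46% of 4-fold changes, and CONV against all others 7% and 79%. In muscle these shares were 77% and 100%, and 95% and 100%, with 10 false calls in each comparison and 0 in skin. A lack of calls in skin therefore says little about 2-fold changes. The small number of libraries per group limits the precision.

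Groups follow the record of each file. Members and lists were chosen with earlier results of these data known. The text names the 13 mitochondrially encoded genes, up to 6 members per direction with the largest called change, isoform sets and 9 subunits standing for their complexes, and up to 4 other mitochondrial genes per direction, with Ppargc1a and Tfam; further genes are marked as named after their values were seen. Promoters are from RefSeq (GRCm38.p6). Nuclear copies were found by shared 31-base words.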

Additional observations from a re-analysis of the deposited data

Results flagged for a closer look

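In groups of 4 libraries, 9 of 29 sets of values had 1 library standing apart from the other 3 by Dixon's criterion. Chance alone meets this criterion in about 1 of 20 independent sets. The 29 sets were read from the same libraries and are not independent, so their count cannot be set against that rate. Of the 9, 8 belonged to skin FLASH replicate 2, 1 of the 2 muscle-rich skin libraries. Its mitochondrially encoded genes summed to 120241 TPM and mt-Nd6 made up 3.01% of that sum. In CPM with TMM scaling it had 20611 for mt-Co1, 1808 for mt-Nd2, 1466 for mt-Nd4l, 44.3 for Cox6a2, 15.3 for Cox7a1 and 24.6 for Cox8b. Its 10 fast-muscle markers summed to 28577 TPM. The ninth was Ndufb4 in muscle FLASH replicate 2, at 22.3 CPM, the lowest of its group.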

How the results depend on the processing

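Calls of members under irradiation were 0 in both directions in every setting of all 9 comparisons. Medians of log2 fold changes moved as follows, the cause not being tested. Without the libraries of disagreeing name, muscle CONV against sham was at -0.028 (mitochondrially encoded) and 0.13 (nuclear), FLASH against sham at 0.16 (mitochondrially encoded), CONV against all others at 0.13 (nuclear), and the interaction at 0.10 (nuclear). By library name, muscle FLASH against sham was at 0.22 and 0.17. Between the tissues, mitochondrially encoded and nuclear medians were 1.92 and 0.93 with library totals, and 3.43 and 2.92 without the disagreeing libraries. Without the 2 muscle-rich libraries they were 5.35 and 3.66. With library totals 10 members were called lower between the tissues, and by library name 2 were. With the nuclear copies added (chosen after seeing the data, as was leaving out the muscle-rich libraries), the mean ratio was 12.8, 12.6 and 10.6 in sham, FLASH and CONV muscle.

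Leaving out 1 library at a time, the mitochondrially encoded median ranged from -1.17 to 0.21 in skin CONV against sham, from -0.70 to 0.83 in skin FLASH against sham, from -1.10 to -0.36 in skin CONV against all others, from -0.59 to -0.14 in muscle CONV against sham, from -0.39 to -0.23 in muscle CONV against all others, from -0.31 to 0.13 in muscle FLASH against sham, from 0.06 to 1.05 in skin and 0.17 to 0.36 in muscle FLASH against CONV, from -0.0050 to 0.80 in the interaction, and from 3.87 to 5.36 between tissues, where the nuclear median ranged from 3.15 to 3.67. The nuclear median of skin CONV against all others ranged from -0.08 to 0.19 and that of muscle from -0.10 to 0.02.

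Single genes changed sign as follows. In skin CONV against all others, without the 2 muscle-rich libraries, mt-Nd6 was at 0.43, Cox6a2 at 1.39, Cox7a1 at 0.43 and Cox8b at 0.95; leaving out 1 library at a time, mt-Nd6 ranged from -0.58 to 0.30, above 0 without sham 1, CONV 1 or CONV 3. In muscle CONV against all others, mt-Co1 was at 0.024 without the disagreeing libraries; mt-Co2 was at 0.074 with library totals and ranged from -0.31 to 0.39 without 1 library, above 0 without sham 1, sham 2 or CONV 2. Between the tissues with library totals, Cox6a1 was at -2.20, Cox7a2 at -0.16, Cox7a2l at -1.85, Cox8a at -2.14, Cox4i2 at -0.52, Ndufs1 at -0.023 and Atp5g2 at -0.21; Cox6a1 was at -0.0036 without the muscle-rich libraries and Cox8a at -0.023 without the disagreeing ones.

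Replicate numbers are not stated to pair the libraries, and correlations in groups this small cannot decide whether they do. Same-numbered deviations correlated between -0.83 and 0.45 in skin, -0.60 and 0.44 in muscle, and -0.04 and 0.09 across tissues. With a replicate block the calls stayed at 0 in all irradiation comparisons and at 100 higher and 1 lower between the tissues; the mitochondrially encoded median of skin FLASH against sham changed sign, to 0.25.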
